A study of Mus musculus with 2 samples.

Results

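The genes that fire DNA replication origins and build the replication fork were examined in effector regulatory T cells (effector Treg cells) that lack Nrn1. Members were the rows of both expression files whose symbol stood in a fixed list of 51 genes. Of these 51 genes, 50 had a row, out of 46398 distinct symbols in all, and all 50 passed a filter of a mean of at least 1 FPKM. The symbol Claspn matched no row, and Clspn, the symbol under which the files list claspin, is therefore described with the other replisome genes. The tested cells were Nrn1-/- and the control cells Nrn1+/-, with 1 library each. The control library's title calls it wild type, but its genotype label gives a heterozygote. Cells of both genotypes came from C57BL/6 mice on the Foxp3DTRgfp background, a Foxp3 allele that marks regulatory T cells with green fluorescent protein, and were sorted as CD4+, CD25+, CD44-high, CD62L-low and GFP-positive. The labels give neither the age of the mice, nor how many went into a library, nor the extent of the Nrn1 deletion. Levels are in FPKM, which divides the fragments of a gene by its transcript length and by depth, so that different genes can be compared per length.

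Replication starts when the origin recognition complex (ORC) binds DNA and, with Cdc6 and Cdt1, loads the ring-shaped Mcm2 to Mcm7 helicase around it, a step called licensing. Kinases then fire the licensed origin by adding Cdc45 and the GINS complex to the ring, which turns it into the active helicase. Polymerases copy the unwound strands while held to DNA by the sliding clamp Pcna, which the Rfc complex loads. Resting T cells carry little of this machinery and build it when they enter the cell cycle, largely under transcription factors of the E2F family.

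In Nrn1-/- cells 1 fragment on 1 kb of transcript was worth 0.0254 FPKM, against 0.0192 FPKM in Nrn1+/- cells. From these steps the members rested on about 475 to 23113 fragments in Nrn1-/- cells and about 363 to 20851 in Nrn1+/- cells. These numbers are rough, because they take the median coding transcript length of each gene, as short as 400 bases for Tipin and 658 for Mcm4. The widths of the counting intervals given below share that limit. Nrn1 itself stood at 4.62 FPKM in Nrn1-/- cells, against 66.5 FPKM in Nrn1+/- cells. All 8 regulatory T cell markers checked were abundant, between 54.4 and 564 FPKM in Nrn1-/- cells and between 72.8 and 608 FPKM in Nrn1+/- cells, and each was lower in Nrn1-/- cells, with Foxp3 at 195 FPKM in Nrn1-/- cells and 257 FPKM in Nrn1+/- cells. Markers of other cells were low: the 8 B cell markers summed to 9.41 FPKM in Nrn1-/- cells and 6.72 FPKM in Nrn1+/- cells, and the 8 myeloid markers to 7.34 and 8.56 FPKM in the same order. Sums over the 6 dendritic cell markers were 2.38 FPKM (Nrn1-/-) and 2.96 FPKM (Nrn1+/-). The 6 CD8 and NK cell markers came to 9.93 FPKM (Nrn1-/-) and 10.9 FPKM (Nrn1+/-), and the 6 erythroid markers to 0.368 and 0.654 FPKM. The 4 plasma cell markers, among them Prdm1, which regulatory T cells express too, reached 18.5 FPKM (Nrn1-/-) and 15.7 FPKM (Nrn1+/-). For 5 thymocyte markers the sums were 12.5 FPKM (Nrn1-/-) and 25.1 FPKM (Nrn1+/-), nearly all of it Cd1d1, with Rag2 listed at 0 in both. Markers listed at 0 in both libraries also included S100a8, Siglech and Clec9a. The part of these cells in the results was not tested.

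Replication genes were higher in Nrn1-/- cells almost throughout. Of the 50 genes, 49 stood above their Nrn1+/- value, against 52.3% of the 12344 genes tested. On the log2 scale with 1 FPKM added, 38 of 50 were at least 1.5-fold higher, against 7.5% of all genes tested and 7.08% of the 7843 protein-coding genes within the same range of levels. Cdc6, Mcm10, Chaf1a and Cdc45 were at least 2-fold higher, 4 of 50 against 1.98% of all genes tested and 1.22% of those 7843 genes. These 1.5-fold and 2-fold thresholds apply with 1 FPKM added throughout, while the folds printed beside FPKM values are plain ratios. None was 1.5-fold lower, against 5.27% of all genes tested. The median log2 ratio was 0.72 (1.65-fold), with a range of -0.07 to 1.24, while the median over all genes tested was 0.02. Together the 50 genes summed to 3212 FPKM in Nrn1-/- cells, 0.496% of all protein-coding FPKM, and to 1955 FPKM in Nrn1+/- cells, 0.330% of it. In bulk RNA a larger share of cells in S phase and more of each message per cycling cell cannot be told apart. Since each genotype has a single library, the variation among mice is unknown and no difference could be tested.

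**Figure D1:**
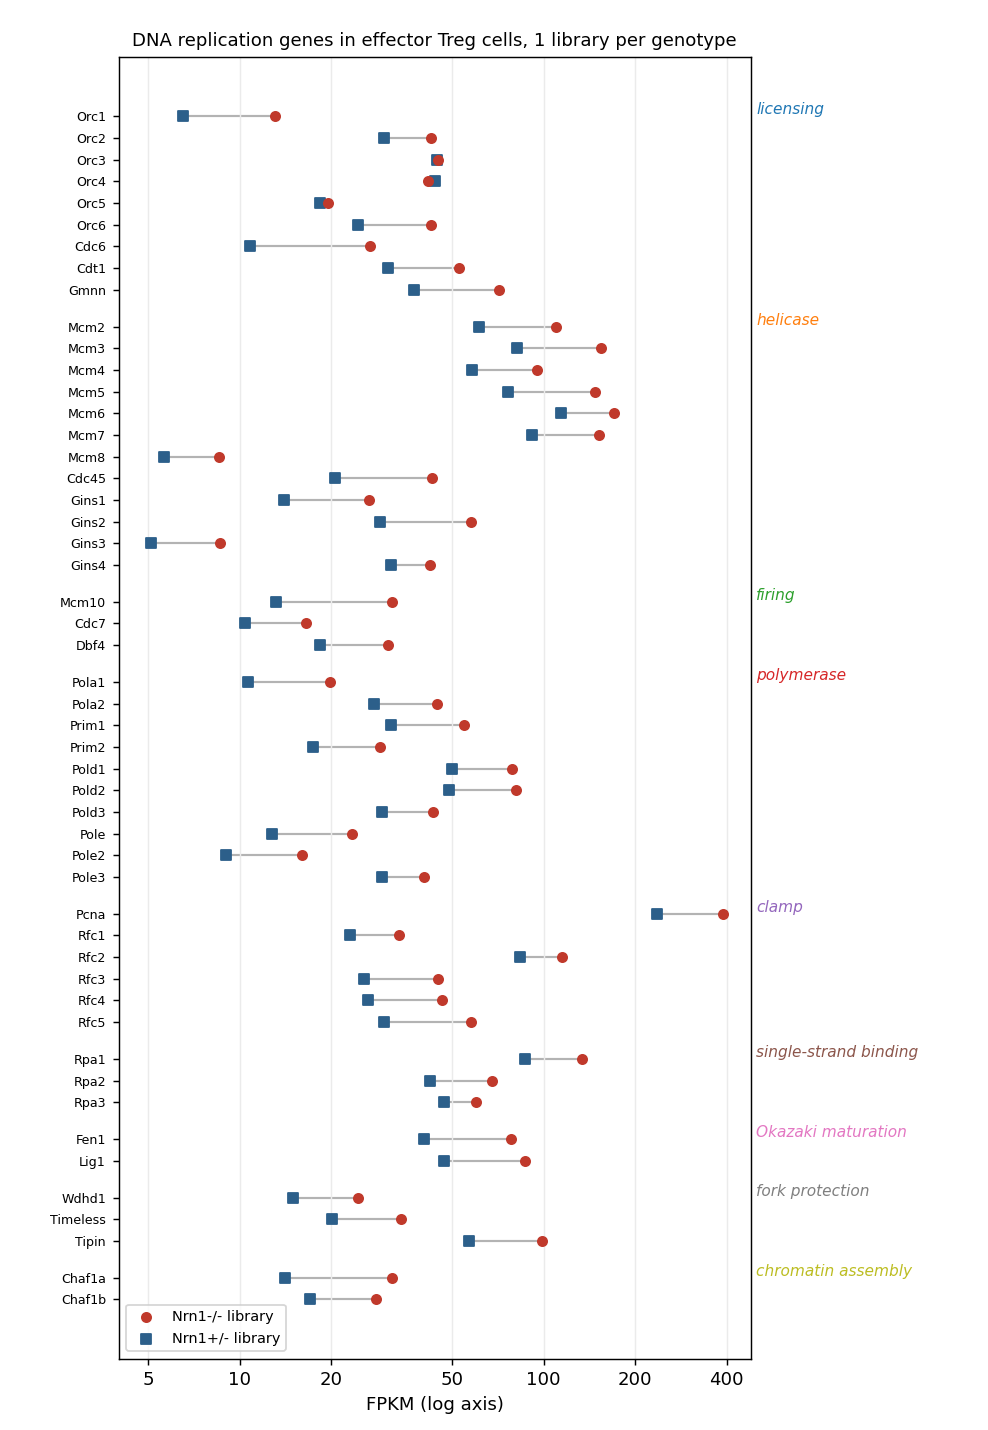
FPKM (log axis) of the 50 replication genes in Nrn1-/- cells (circles) and Nrn1+/- cells (squares), grouped by role. The circle lies to the right of the square in every row except Orc4, and in Orc3 and Orc5 the symbols nearly coincide.

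Which replication genes were most abundant was much the same in both libraries. Pcna was the highest member in both and Mcm6 second, and Mcm8, Gins3 and Orc1 were the 3 lowest in both. Across the 50 genes, the order of levels correlated between the libraries with a Spearman's rho of 0.95, a description over genes that share the same libraries. The size of the ratio was unrelated to level among these genes, with a Spearman's rho of -0.03 (n = 50). Large differences were therefore found both in scarce genes such as Orc1 and in abundant ones such as Mcm3.

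**Figure D2:**
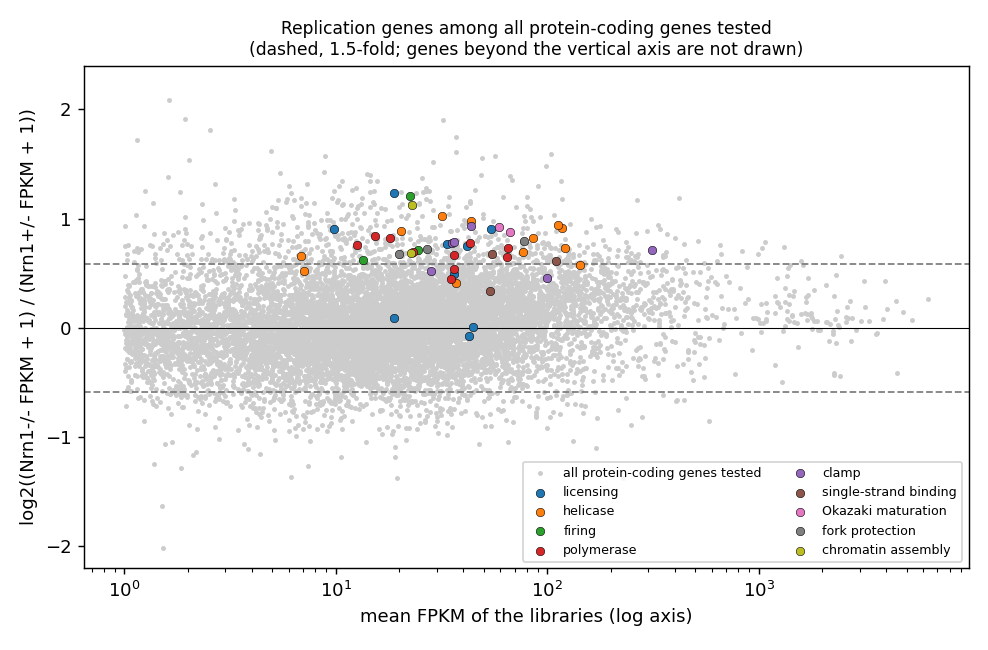
Log2 ratio of Nrn1-/- over Nrn1+/- against mean FPKM (log axis) for 10695 protein-coding genes (grey) and the replication genes (coloured by role). The coloured points form a band above the dashed 1.5-fold line at all levels, apart from 12 genes, of which Orc3, Orc4 and Orc5 sit on the zero line.

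The DNA upstream of them was searched for the letters that E2F factors are known to bind. RefSeq promoters (GRCm38.p6, 250 bases before to 50 after each start) were available for 41 of the 51 symbols. The letters searched were TTTCCCGC, TTTCGCGC, TTTGCCGC and TTTGGCGC on both strands, which can overlap each other at their GCGC ends. They occurred in 16 of 41 members (39.0%), against 4.98% of 8220 protein-coding genes tested and 2.61% of all 27025 genes with a promoter. Among 3615 tested genes with 18 to 30 CpG pairs in the promoter, the middle range of the members, the share was 5.64%. The CCAAT box, another short promoter element, occurred in 23 of 41 members (56.1%), against 43.4% of the protein-coding genes tested. A match is a description of the letters and not a bound site.

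Upstream sequences are shown for 7 members that span the range of ratios, each 250 bases ending next to the start, 5′ to 3′ on the gene's strand, with the E2F letters in capitals. Orc1 and Orc3 are subunits of one complex with different ratios, Cdc6 and Mcm10 had the largest ratios, and Mcm5, Mcm6 and Pola1 stand for the helicase and the polymerases. Orc1 lies at chr4:108579204-108579453 (plus strand), Orc3 at chr4:34614943-34615192 (minus strand), Cdc6 at chr11:98907901-98908150 (plus strand) and Mcm5 at chr8:75109259-75109508 (plus strand). Mcm6 lies at chr1:128359706-128359955 (minus strand), Pola1 at chrX:93632156-93632405 (minus strand) and Mcm10 at chr2:5012792-5013041 (minus strand).
Orc1: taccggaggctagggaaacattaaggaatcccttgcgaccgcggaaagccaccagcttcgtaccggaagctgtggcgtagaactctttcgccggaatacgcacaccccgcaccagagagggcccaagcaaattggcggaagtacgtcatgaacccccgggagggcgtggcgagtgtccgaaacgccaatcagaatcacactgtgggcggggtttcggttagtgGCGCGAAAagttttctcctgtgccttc
Orc3: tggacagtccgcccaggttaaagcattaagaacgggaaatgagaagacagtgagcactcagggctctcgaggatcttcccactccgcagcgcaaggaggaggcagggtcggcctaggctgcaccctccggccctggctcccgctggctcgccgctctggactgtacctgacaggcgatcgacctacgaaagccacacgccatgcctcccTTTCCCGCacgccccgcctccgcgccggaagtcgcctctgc
Cdc6: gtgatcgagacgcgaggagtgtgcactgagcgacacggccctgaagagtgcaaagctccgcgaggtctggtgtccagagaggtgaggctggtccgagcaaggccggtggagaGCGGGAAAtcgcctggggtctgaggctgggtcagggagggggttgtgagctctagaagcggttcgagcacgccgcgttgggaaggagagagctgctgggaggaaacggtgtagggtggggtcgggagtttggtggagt
Mcm5: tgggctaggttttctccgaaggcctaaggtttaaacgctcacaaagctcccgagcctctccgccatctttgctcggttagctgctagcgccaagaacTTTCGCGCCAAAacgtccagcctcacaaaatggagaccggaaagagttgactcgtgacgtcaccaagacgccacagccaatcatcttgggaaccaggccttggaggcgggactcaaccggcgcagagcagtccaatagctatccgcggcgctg
Mcm6: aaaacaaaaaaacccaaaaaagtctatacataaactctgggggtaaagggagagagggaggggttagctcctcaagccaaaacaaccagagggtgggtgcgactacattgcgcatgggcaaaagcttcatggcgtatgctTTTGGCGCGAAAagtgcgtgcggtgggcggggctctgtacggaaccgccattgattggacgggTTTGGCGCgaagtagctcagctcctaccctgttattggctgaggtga
Pola1: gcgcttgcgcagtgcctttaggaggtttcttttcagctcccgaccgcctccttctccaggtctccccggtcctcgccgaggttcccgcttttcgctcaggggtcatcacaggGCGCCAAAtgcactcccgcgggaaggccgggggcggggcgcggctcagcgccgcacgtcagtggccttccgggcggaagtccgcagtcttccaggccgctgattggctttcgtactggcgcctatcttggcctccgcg
Mcm10: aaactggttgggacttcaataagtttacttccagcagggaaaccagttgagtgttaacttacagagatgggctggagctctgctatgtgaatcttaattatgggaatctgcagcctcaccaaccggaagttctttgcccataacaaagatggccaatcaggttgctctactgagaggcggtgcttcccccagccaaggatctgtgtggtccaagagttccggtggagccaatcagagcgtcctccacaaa

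The letters did not sort the members by ratio. Orc3, with the letters 41 bases before its start, was level between the libraries, and Mcm10, with none in its window, had the second largest ratio. The 16 members with the letters had a median log2 ratio of 0.76, with a range of 0.01 to 1.24. The 25 members with a promoter but without the letters had a median of 0.72, with a range of -0.07 to 1.21. Mcm3, Mcm5, Mcm6, Mcm7 and Rfc3 carried at least 2 matches. In Mcm5 and Mcm6 a pair of matches on opposite strands shared 4 bases. Of the 22 matches, 15 began within 60 bases of the start. By role, of the genes with a promoter, 6 of 8 helicase, 4 of 8 licensing, 4 of 8 polymerase and 1 of 5 clamp genes had the letters. So did 1 of 2 Okazaki maturation genes. None of the 3 firing, 3 single-strand binding, 2 fork protection and 2 chromatin assembly genes had them. The mitosis genes used for comparison below had the letters in 1 of 17 promoters, with a CCAAT box in 15 of 17.

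Licensing genes were divided. Cdc6, the ATPase that completes the ORC ring so that Mcm2 to Mcm7 can be loaded, stood at 26.9 FPKM in Nrn1-/- cells, against 10.8 FPKM in Nrn1+/- cells. This was the largest ratio of all 50 members, 2.48-fold (95% counting interval 2.35 to 2.62). Cdt1, which brings Mcm2 to Mcm7 to the origin, had 52.5 FPKM in Nrn1-/- cells and 30.7 FPKM in Nrn1+/- cells. Geminin (Gmnn), the protein that binds Cdt1 and blocks a further round of licensing, had 71.2 FPKM in Nrn1-/- cells and 37.4 FPKM in Nrn1+/- cells. The licensing factor and its inhibitor were thus both higher, and Gmnn exceeded Cdt1 by 1.36-fold in Nrn1-/- cells and 1.22-fold in Nrn1+/- cells.

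Within ORC, subunits of a single complex parted. Orc1, an ATPase subunit, stood at 13.1 FPKM in Nrn1-/- cells and 6.52 FPKM in Nrn1+/- cells, 2.01-fold (counting interval 1.85 to 2.19). Orc6, the smallest subunit, had 42.5 FPKM in Nrn1-/- cells and 24.6 FPKM in Nrn1+/- cells, 1.73-fold. Orc2, a core subunit, had 42.5 FPKM in Nrn1-/- cells and 29.8 FPKM in Nrn1+/- cells, 1.42-fold. These 3 subunits were higher in Nrn1-/- cells.

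The other three core subunits were nearly level. Orc3 had 44.8 FPKM in Nrn1-/- cells and 44.5 FPKM in Nrn1+/- cells, and Orc4 had 41.6 FPKM in Nrn1-/- cells and 43.8 FPKM in Nrn1+/- cells. Orc5 had 19.5 FPKM in Nrn1-/- cells and 18.3 FPKM in Nrn1+/- cells. The 95% counting intervals of these 3 genes alone among the members covered 1. Log2 ratios were 0.01, -0.07 and 0.09 as deposited, and all 3 were negative when the libraries were brought to a common protein-coding sum (-0.12, -0.20 and -0.03). Orc1 was the scarcest subunit in both libraries, and the spread from the highest to the lowest subunit was 3.41-fold in Nrn1-/- cells and 6.83-fold in Nrn1+/- cells. Orc1 stood at 0.293 of the Orc3 level in Nrn1-/- cells, against 0.146 in Nrn1+/- cells.

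**Figure D3:**
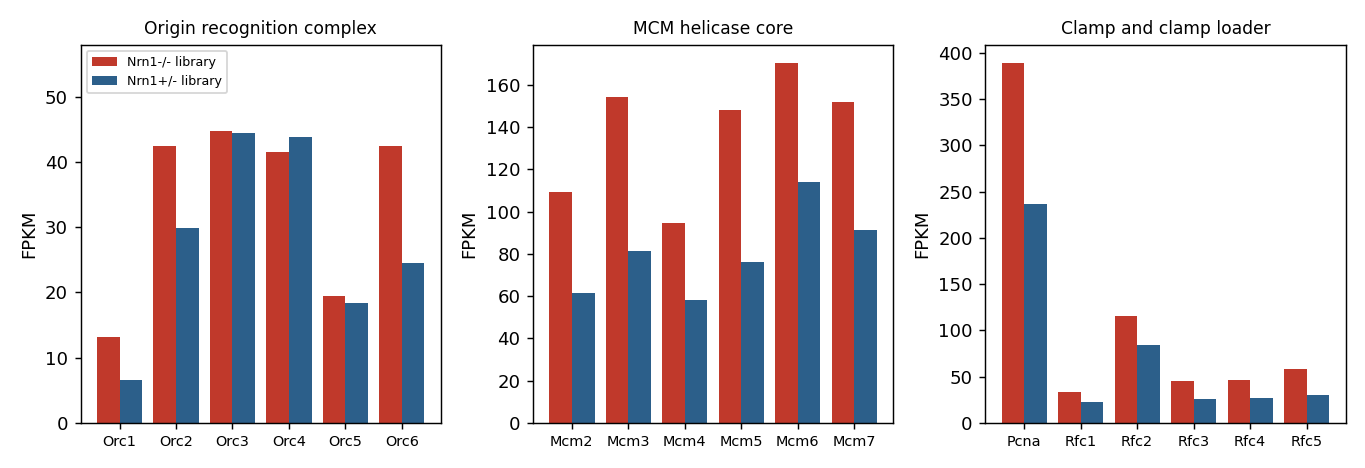
FPKM of the subunits of ORC, of the Mcm2 to Mcm7 ring and of the clamp with its loader, with Nrn1-/- cells (red) left of Nrn1+/- cells (blue) for each gene. Orc3, Orc4 and Orc5 have bars of about equal height, whereas the red bar is the taller one for all other genes drawn.

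All 12 helicase genes stood above their Nrn1+/- level, 9 of them at least 1.5-fold. The 6 subunits of the Mcm2 to Mcm7 ring were among the most abundant members, between 94.7 and 171 FPKM in Nrn1-/- cells and between 58.1 and 114 FPKM in Nrn1+/- cells. Mcm5 had 148 FPKM in Nrn1-/- cells and 76.3 FPKM in Nrn1+/- cells, the largest fold of the ring at 1.94. Mcm3 had 154 FPKM in Nrn1-/- cells and 81.4 FPKM in Nrn1+/- cells, 1.90-fold. Next came Mcm2 at 109 FPKM in Nrn1-/- cells and 61.5 FPKM in Nrn1+/- cells. Mcm7 was at 152 and Mcm4 at 94.7 FPKM in Nrn1-/- cells, against 91.3 and 58.1 FPKM in Nrn1+/- cells. Mcm6, the most abundant subunit in both libraries, had the smallest fold, 1.49, with 171 FPKM in Nrn1-/- cells and 114 FPKM in Nrn1+/- cells. Its interval of 1.47 to 1.52 lay below that of Mcm5 (1.89 to 1.99), so the difference between the folds of these subunits was larger than counting error. Message levels of the 6 subunits spanned 1.80-fold in Nrn1-/- cells and 1.96-fold in Nrn1+/- cells, a similar span although the folds differed. Protein of the ring was not measured.

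Cdc45, which joins the ring at firing, had 43.0 FPKM in Nrn1-/- cells and 20.7 FPKM in Nrn1+/- cells, 2.08-fold and the largest fold of the helicase group. The 4 GINS genes encode a complex that joins the ring with Cdc45, yet their levels differed widely. Gins2 had 57.9 FPKM in Nrn1-/- cells and 28.9 FPKM in Nrn1+/- cells, a log2 ratio of 0.98. Gins1 followed with 26.7 FPKM in Nrn1-/- cells and 14.0 FPKM in Nrn1+/- cells, 1.91-fold. Gins3 was the scarcest at 8.63 FPKM in Nrn1-/- cells and 5.11 FPKM in Nrn1+/- cells. Gins4, with 42.2 FPKM in Nrn1-/- cells and 31.5 FPKM in Nrn1+/- cells, had the smallest fold of the group, 1.34. The highest GINS level exceeded the lowest by 6.70-fold in Nrn1-/- cells and 6.17-fold in Nrn1+/- cells, far more than in the Mcm ring. Mcm8, a related helicase known for a part in recombination repair and not in the ring, had 8.53 FPKM in Nrn1-/- cells and 5.63 FPKM in Nrn1+/- cells, 1.52-fold in FPKM but short of 1.5-fold once 1 FPKM was added.

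The 3 genes of origin firing were all at least 1.5-fold higher. Mcm10, which helps to activate the assembled helicase, stood at 31.7 FPKM in Nrn1-/- cells and 13.1 FPKM in Nrn1+/- cells, 2.41-fold. Cdc7, the kinase that phosphorylates the Mcm ring, had 16.6 FPKM in Nrn1-/- cells and 10.4 FPKM in Nrn1+/- cells. Its activating subunit Dbf4 had 30.8 FPKM in Nrn1-/- cells and 18.3 FPKM in Nrn1+/- cells. Kinase and activator kept a similar proportion, with Dbf4 over Cdc7 at 1.86 in Nrn1-/- cells and 1.76 in Nrn1+/- cells.

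All 10 polymerase genes were higher, 8 of them at least 1.5-fold, and no ratio reached 2-fold. Polymerase alpha and its primase lay down the first stretch of each new strand. Its catalytic subunit Pola1 had 19.9 FPKM in Nrn1-/- cells and 10.6 FPKM in Nrn1+/- cells, 1.87-fold and the largest of the group. Prim1, the primase catalytic subunit, had 54.9 FPKM in Nrn1-/- cells and 31.5 FPKM in Nrn1+/- cells. Accessory subunits Pola2 and Prim2 were at 44.7 and 29.0 FPKM in Nrn1-/- cells, against 27.7 and 17.5 FPKM in Nrn1+/- cells. All 4 genes of this enzyme thus passed 1.5-fold.

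Polymerase epsilon copies the leading strand and polymerase delta the lagging strand. Pole, the catalytic subunit of epsilon, had 23.5 FPKM in Nrn1-/- cells and 12.8 FPKM in Nrn1+/- cells, and its partner Pole2 had 16.0 FPKM in Nrn1-/- cells and 9.05 FPKM in Nrn1+/- cells. Pole3, a histone-fold subunit, had 40.5 FPKM in Nrn1-/- cells and 29.5 FPKM in Nrn1+/- cells, 1.37-fold. The small histone-fold subunit thus stood nearer to its Nrn1+/- level than the catalytic one, and the counting intervals of Pole3 and Pole did not meet. Pold1, the catalytic subunit of delta, had 78.8 FPKM in Nrn1-/- cells and 49.9 FPKM in Nrn1+/- cells. Pold2 was at 81.4 FPKM in Nrn1-/- cells and 48.7 FPKM in Nrn1+/- cells, and Pold3 at 43.2 FPKM in Nrn1-/- cells and 29.4 FPKM in Nrn1+/- cells. The catalytic subunits of alpha and epsilon were scarcer than that of delta in both libraries, with Pole at 0.298 of Pold1 in Nrn1-/- cells and 0.257 in Nrn1+/- cells.

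In the clamp group all 6 genes were higher, 4 of them at least 1.5-fold. Pcna had 389 FPKM in Nrn1-/- cells and 236 FPKM in Nrn1+/- cells, 1.65-fold (counting interval 1.61 to 1.68). Among the loader subunits, Rfc5 had the largest fold, with 57.7 FPKM in Nrn1-/- cells and 29.8 FPKM in Nrn1+/- cells, 1.94-fold. Rfc4 and Rfc3 were at 46.3 and 44.9 FPKM in Nrn1-/- cells, against 26.4 and 25.7 FPKM in Nrn1+/- cells. These small subunits of the loader passed 1.5-fold. Rfc1, its large subunit, had 33.4 FPKM in Nrn1-/- cells and 23.0 FPKM in Nrn1+/- cells, 1.45-fold. Rfc2, the most abundant loader gene, had 115 FPKM in Nrn1-/- cells and 83.8 FPKM in Nrn1+/- cells, 1.37-fold. Pcna exceeded the mean loader subunit by 6.54-fold in Nrn1-/- cells and 6.26-fold in Nrn1+/- cells. Single subunits did not all keep this proportion to Pcna. The counting intervals of the Rfc1 and Rfc2 folds lay below that of Pcna, and that of Rfc5 lay above it. Only those of Rfc3 and Rfc4 met it.

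Replication protein A coats the single strands exposed by the helicase. Its large subunit Rpa1 had 134 FPKM in Nrn1-/- cells and 87.1 FPKM in Nrn1+/- cells, and Rpa2 had 67.8 FPKM in Nrn1-/- cells and 42.1 FPKM in Nrn1+/- cells. Rpa3, the smallest subunit, had 60.03 FPKM in Nrn1-/- cells and 47.1 FPKM in Nrn1+/- cells, 1.27-fold, the smallest ratio outside Orc3, Orc4 and Orc5. The flap nuclease Fen1 and the ligase Lig1 finish the Okazaki fragments of the lagging strand. Fen1 had 77.9 FPKM in Nrn1-/- cells and 40.5 FPKM in Nrn1+/- cells, and Lig1 had 86.9 FPKM in Nrn1-/- cells and 46.9 FPKM in Nrn1+/- cells. Both passed 1.5-fold, with folds of 1.92 and 1.86.

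Timeless and Tipin form a complex that stabilises the fork, and Wdhd1 ties the helicase to polymerase alpha. Timeless had 33.9 FPKM in Nrn1-/- cells and 20.2 FPKM in Nrn1+/- cells, and Tipin had 98.8 FPKM in Nrn1-/- cells and 56.6 FPKM in Nrn1+/- cells. Wdhd1 was at 24.6 FPKM in Nrn1-/- cells and 15.0 FPKM in Nrn1+/- cells. All 3 were at least 1.5-fold higher, within a narrow range of 1.64-fold to 1.75-fold. Chaf1a and Chaf1b, subunits of the factor that places histones on newly copied DNA, both passed 1.5-fold but not equally. Chaf1a had 31.8 FPKM in Nrn1-/- cells and 14.1 FPKM in Nrn1+/- cells, 2.26-fold, while Chaf1b had 28.1 FPKM in Nrn1-/- cells and 17.1 FPKM in Nrn1+/- cells, 1.65-fold. Their order was therefore opposite in the libraries, with Chaf1a at 1.13 of Chaf1b in Nrn1-/- cells and 0.826 in Nrn1+/- cells. Chaf1a shares 52.5% of its exon length with Ubxn6, so its values and this order are uncertain.

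**Figure D4:**
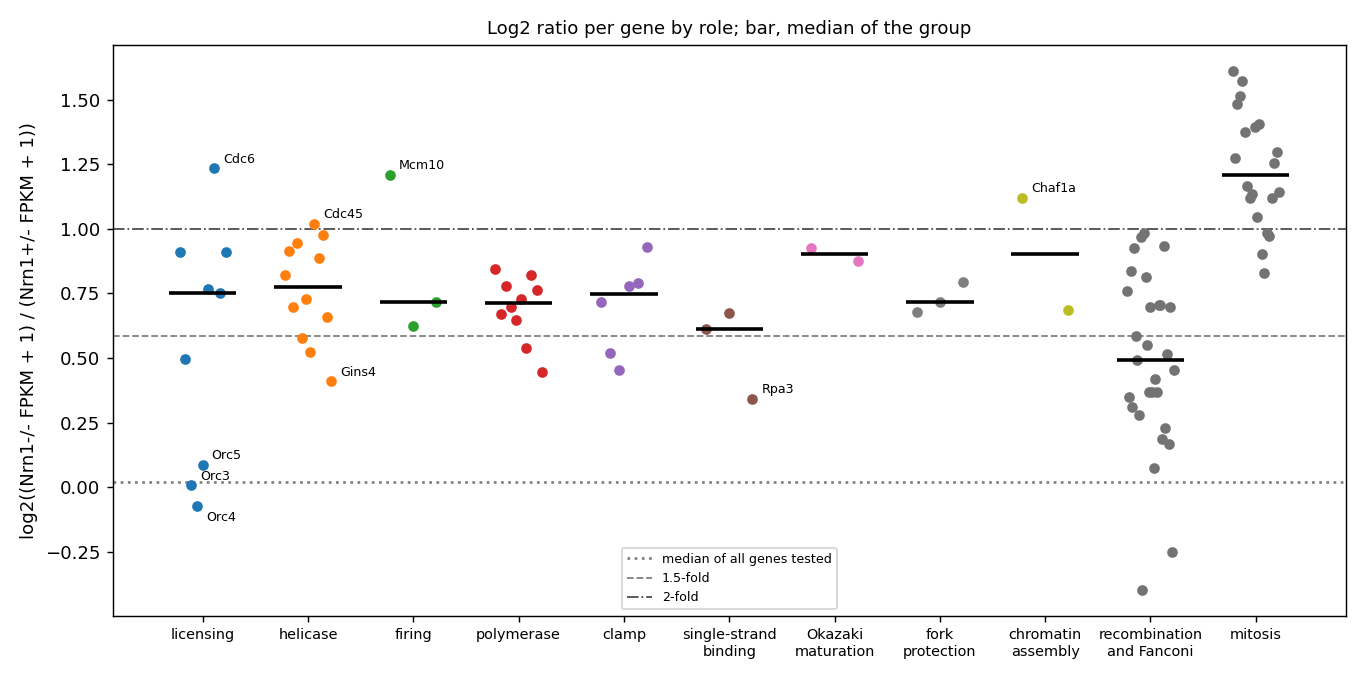
Log2 ratio of Nrn1-/- over Nrn1+/- for each gene, by role, with the median of each group as a bar, beside the recombination and mitosis lists. The medians of the licensing, helicase, polymerase and clamp groups lie between 0.71 and 0.78, Orc3, Orc4 and Orc5 stand apart from the other licensing genes, and the mitosis genes lie higher.

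Set side by side, the 4 main roles had median log2 ratios between 0.71 and 0.78. The median was 0.78 over 12 helicase genes, 0.75 over 9 licensing genes, 0.75 over 6 clamp genes and 0.71 over 10 polymerase genes. Whether the medians differ could not be tested. The range within each role was wider than the spread of these medians. Licensing ran from -0.07 to 1.24, the helicase group from 0.41 to 1.02, the clamp group from 0.45 to 0.93 and the polymerase group from 0.45 to 0.84. Without Orc3, Orc4 and Orc5, a choice made after their values were seen, the licensing median was 0.84. The share of genes at least 1.5-fold higher was 9 of 12 for helicase, 5 of 9 for licensing, 4 of 6 for clamp and 8 of 10 for polymerase genes, against 7.5% of all genes tested.

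How far these genes stood above their Nrn1+/- level depended on how the libraries were scaled. Each scaling multiplies a whole library by a single factor and so shifts all log2 ratios nearly alike. The distance of these genes from other genes was therefore nearly fixed in advance. Over all rows the FPKM came to 790935 in Nrn1-/- cells and 645876 in Nrn1+/- cells, and protein-coding rows to 647545 FPKM in Nrn1-/- cells and 593035 FPKM in Nrn1+/- cells. A single short RNA, Snord19, was listed at 71090.6 FPKM in Nrn1-/- cells and at 0 in Nrn1+/- cells, which enters the sum over all rows. Brought to a common protein-coding sum, the members had a median log2 ratio of 0.60 with 28 of 50 at least 1.5-fold higher, against 4.83% of all genes tested under that scaling. Brought to a sum of 1000000 over all rows, the median was 0.44 with 13 of 50 at least 1.5-fold higher, against 3.27% of all genes, and the median of all genes tested was itself -0.25. The members' median exceeded that of all genes tested by 0.70 as deposited, 0.69 with the common protein-coding sum and 0.69 with the sum over all rows.

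**Figure D5:**
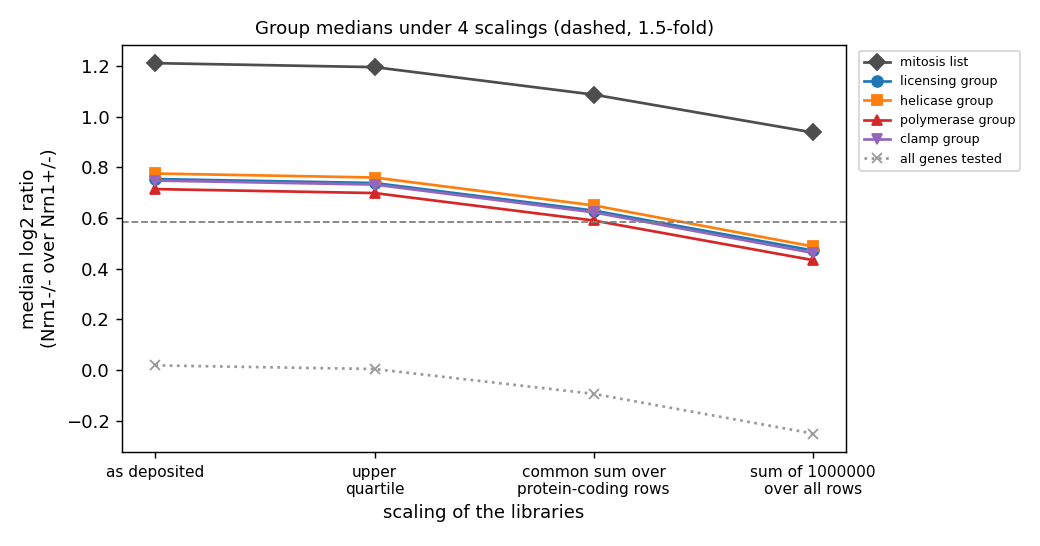
Median log2 ratio of 4 role groups, of the mitosis list and of all genes tested (vertical axis) under 4 scalings of the libraries (horizontal axis). The lines run parallel because each scaling shifts all log2 ratios nearly alike. With the sum over all rows the role groups lie below the dashed 1.5-fold line, at 0.43 to 0.49.

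Other genes of the pathway were taken from lists of its known components. Of 17 other origin and replisome genes tested, 10 were higher, near the 52.3% of all genes tested, and 7 were lower. At least 1.5-fold higher were 4 of 17, against 7.5% of all genes tested. Those beyond 1.5-fold were Clspn, the checkpoint adaptor claspin (24.5 FPKM in Nrn1-/- cells and 11.8 FPKM in Nrn1+/- cells), Recql4, a helicase of initiation (10.3 FPKM in Nrn1-/- cells and 4.54 FPKM in Nrn1+/- cells), Ticrr and Mms22l. Ticrr, which brings Cdc45 to the origin, had 7.92 FPKM in Nrn1-/- cells and 4.77 FPKM in Nrn1+/- cells, and Mms22l, a factor of fork repair, had 18.1 and 10.9 FPKM in the same order. Gmnc, a relative of geminin, was listed at 0 in both. The median of this list was 0.28. The remaining small subunits of the replicative polymerases both stayed within 1.5-fold, in opposite directions, with Pold4 at 38.1 FPKM in Nrn1-/- cells and 50.5 FPKM in Nrn1+/- cells and Pole4 at 86.0 FPKM in Nrn1-/- cells and 71.0 FPKM in Nrn1+/- cells.

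All 10 genes of other clamp loaders and of clamp handling were higher, against 52.3% of all genes tested. Of these 10, 5 were at least 1.5-fold higher, against 7.5% of all genes tested, and the log2 ratios ran from 0.09 to 1.36. Pclaf, a small clamp-binding protein listed in the files as 2810417H13Rik, had 98.3 FPKM in Nrn1-/- cells and 37.8 FPKM in Nrn1+/- cells, 2.60-fold. Chtf18 and Dscc1, of an alternative clamp loader, were at 19.2 and 8.90 FPKM in Nrn1-/- cells, against 10.1 and 5.07 FPKM in Nrn1+/- cells. Dtl, which directs destruction of clamp-bound proteins such as Cdt1, had 20.1 FPKM in Nrn1-/- cells and 11.8 FPKM in Nrn1+/- cells, and Usp1, a deubiquitinase acting on the clamp, had 67.3 FPKM in Nrn1-/- cells and 37.4 FPKM in Nrn1+/- cells. Of 11 other genes for nucleases, ligases, topoisomerases and the helicase Pif1, all were higher, with log2 ratios from 0.05 to 1.24. Exo1, Pif1 and Top2a were at least 2-fold higher, against 1.98% of all genes tested. The other 8 stayed under 1.5-fold with 1 FPKM added. Rnaseh2b, a ribonuclease H subunit, came nearest, at 42.6 FPKM in Nrn1-/- cells and 28.1 FPKM in Nrn1+/- cells.

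All 9 other genes of chromatin copying were higher, against 52.3% of all genes tested. Of these 9, 5 were at least 1.5-fold higher, against 7.5% of all genes tested. Asf1b, a histone chaperone that hands histones to the Chaf1 factor, had 64.6 FPKM in Nrn1-/- cells and 26.3 FPKM in Nrn1+/- cells. Uhrf1 and Dnmt1, which maintain DNA methylation behind the fork, were at 86.4 and 104 FPKM in Nrn1-/- cells, against 37.0 and 60.5 FPKM in Nrn1+/- cells. The histone chaperones Nasp and Supt16 also passed, at 130 and 82.3 FPKM in Nrn1-/- cells and 77.9 and 54.3 FPKM in Nrn1+/- cells. Rbbp4, the third subunit of the Chaf1 factor, which also serves other complexes, had 73.5 FPKM in Nrn1-/- cells and 59.6 FPKM in Nrn1+/- cells.

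Among 13 kinases, cyclins and brakes of S phase entry, 10 were higher, against 52.3% of all genes tested. Of these 10, 8 were at least 1.5-fold higher, against 7.5% of all genes tested. In the other direction 1 was at least 1.5-fold lower, against 5.27%. Ccne1, the cyclin that drives S phase entry, had 34.4 FPKM in Nrn1-/- cells and 15.1 FPKM in Nrn1+/- cells, and Ccna2, the cyclin of S and later phases, had 70.8 FPKM in Nrn1-/- cells and 26.2 FPKM in Nrn1+/- cells. Others past 1.5-fold were Ccne2, Cdk2, Cdc25a, Fbxo5, Skp2 and Wee1. The lower gene was Cdkn1b, an inhibitor of Cdk2, with 35.0 FPKM in Nrn1-/- cells and 66.2 FPKM in Nrn1+/- cells. Skp2, which targets the Cdkn1b protein for destruction, had 7.41 FPKM in Nrn1-/- cells and 3.62 FPKM in Nrn1+/- cells.

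The 20 mitosis genes listed differed more than the replication genes in these libraries. That list was chosen with earlier results of these data known, and other mitosis genes were not counted. The difference therefore holds for the listed genes only. Of 20, all passed 1.5-fold and 16 passed 2-fold in the higher direction, against 7.5% and 1.98% of all genes tested. Their median log2 ratio was 1.21, against 0.72 for the replication genes. The gap of 0.49 between the medians was 0.50 with the sum over all rows, a scaling that shifts both lists nearly alike. The mitosis genes summed to 983 FPKM in Nrn1-/- cells and 386 FPKM in Nrn1+/- cells, 2.55-fold, against 1.64-fold for the sum of the replication genes. Ccnb1, Cdc20 and Plk1 had the largest ratios of that list, with Ccnb1 at 56.2 FPKM in Nrn1-/- cells and 17.7 FPKM in Nrn1+/- cells. Recombination and Fanconi repair genes, which act on damaged forks, lay lower, with a median of 0.49. Of 29 tested, 12 were at least 1.5-fold higher, against 7.5% of all genes tested. Rad54l, Rad51ap1 and Fancd2 had the largest log2 ratios there, at 0.99, 0.97 and 0.93, short of 2-fold with 1 FPKM added although their plain FPKM folds were 2.08, 2.01 and 2.05. No test between these lists is possible with 1 library per genotype.

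Several members share exons with neighbouring genes, and the library kit named in the labels is not one that marks strand. Exons of Fen1 overlapped those of other genes over 84.2% of their length, mainly Tmem258, which had 169 FPKM in Nrn1-/- cells and 144 FPKM in Nrn1+/- cells. For Gins2 the overlap was 67.3%, with Gse1 at 14.8 FPKM in Nrn1-/- cells and 17.4 FPKM in Nrn1+/- cells. Chaf1a overlapped Ubxn6 over 52.5%, with Ubxn6 at 31.4 FPKM in Nrn1-/- cells and 32.5 FPKM in Nrn1+/- cells. Orc2 overlapped Nif3l1 over 29.8%, with Nif3l1 at 18.1 FPKM in Nrn1-/- cells and 14.1 FPKM in Nrn1+/- cells. None of these partners differed by 1.5-fold, and values of the 4 members are uncertain to the extent that fragments were shared. Cdt1 and Gins2 were also listed under one merged locus with 191 rows in all, and Pcna-ps2, a pseudogene copy of Pcna, was listed at 3.02 FPKM in Nrn1-/- cells and 1.98 FPKM in Nrn1+/- cells.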

How the data were processed

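Poly(A) RNA of sorted effector regulatory T cells was measured in 1 Nrn1-/- library and 1 Nrn1+/- library, grouped by their genotype labels. The authors deposited 1 FPKM value per gene. The headers name no unit. It was inferred from the values and from the submitters' processing notes, which list Cuffnorm, Cuffdiff, TopHat and FastQC and the builds mm10 and GRCm38. Their versions, the annotation and whether libraries were scaled to each other are not stated there, and such a scaling would shift every ratio alike.

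Each file held 46511 gene rows, and rows of the 82 repeated symbols were summed, none of them a replication gene described here. For each gene log2((Nrn1-/- + 1)/(Nrn1+/- + 1)) was computed, the pseudocount being 1 FPKM, so that differences of low genes are understated. The 12344 genes averaging 1 FPKM or more were used. With 1 library per genotype no test was possible. Gene positions came from GENCODE M21 (GRCm38), in which all 50 identifiers matched. Promoters came from RefSeq (GRCm38.p6). In genes with 1 annotated transcript of at least 1000 bases, 96.5% of 1582 low values in Nrn1-/- cells and 96.1% of 1611 in Nrn1+/- cells lay within 0.1 of whole multiples of 1 fragment, where chance gives 20%. Fragment numbers used the median coding transcript length, so they and the interval widths are approximate where the annotated transcripts of a gene differ in length. The 95% intervals are exact binomial ones for the fold and cover counting error only. The calculation was tested on simulated data. All replication genes were named, with those of 5 related lists beyond 1.5-fold, the 3 largest ratios of the mitosis, recombination and E2F lists, and Nrn1. Pold4, Pole4, Rnaseh2b, Rbbp4, E2f5, Rb1, Rbl1, Rbl2, Cd1d1, Snord19 and genes at overlapping exons were named after their values were seen. The genes and lists were chosen with earlier results of these data known. Scaling, pseudocount, filter and grouping were varied. Protein sequences were not used here. Python 3.11.15, pandas 2.3.3, numpy 2.4.6, scipy 1.17.1 and matplotlib 3.10.9 were used.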

Additional observations from a re-analysis of the deposited data

How the results depend on the processing

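No paired analysis was possible because each genotype has 1 library, and for the same reason no library could be left out. Scaling was the choice that mattered. With the sum of 1000000 over all rows, the members at least 1.5-fold higher numbered 13 and those at least 2-fold higher 0, and with the common protein-coding sum those at least 2-fold higher numbered 2, as against 38 and 4 as reported. Medians with the sum over all rows were 0.44 for the members, 0.47 for licensing, 0.49 for helicase, 0.43 for polymerase, 0.46 for clamp and 0.94 for mitosis. With the common protein-coding sum they were 0.60, 0.63, 0.65, 0.59, 0.62 and 1.09 in the same order. Leaving Orc3, Orc4 and Orc5 out of licensing, chosen after seeing the data, gave 0.84. Pseudocount, filter, upper-quartile scaling, centring, choice of row and the other groupings left every count within 1.5 times and every median within 0.05 of the reported one, and no median changed sign under any setting tried. Of the members, 49 were higher as reported, 48 after upper-quartile scaling or centring and 47 with either sum, where Orc3, Orc4 and Orc5 were all lower. No member was 1.5-fold lower under any of these settings. Without the 4 members that share over 25% of their exons with other genes, also chosen after seeing the data, 35 were at least 1.5-fold and 3 at least 2-fold higher. Some folds lay within counting error of a threshold. The counting intervals of the folds of Orc3, Orc4 and Orc5 covered 1. Those of Orc2, Mcm6, Mcm8, Pold3, Rfc1, Gins3 and Cdc7 covered 1.5. Of these, Gins3 and Cdc7 were among the 38, so 36 intervals lay wholly above 1.5.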

Other observations

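A list of E2F factors, their partners and the pocket proteins, none of them among the replication genes, went both ways. Every E2F factor gene on it was higher, but E2f5 was nearly level, at 7.79 FPKM in Nrn1-/- cells and 7.48 FPKM in Nrn1+/- cells. Of 13 tested, 9 stood above their Nrn1+/- level, against 52.3% of all genes tested. By 1.5-fold or more 6 were higher, against 7.5% of all genes tested, and the median log2 ratio was 0.52. E2f8, a repressor of the family, had 15.3 FPKM in Nrn1-/- cells and 6.41 FPKM in Nrn1+/- cells. E2f1, an activator, had 15.9 FPKM in Nrn1-/- cells and 8.38 FPKM in Nrn1+/- cells, and Tfdp1, the usual binding partner, had 156 FPKM in Nrn1-/- cells and 88.0 FPKM in Nrn1+/- cells. The pocket protein genes that restrain E2F factors were lower, with Rb1 at 14.5 FPKM in Nrn1-/- cells and 19.9 FPKM in Nrn1+/- cells and Rbl2 at 21.1 FPKM in Nrn1-/- cells and 29.7 FPKM in Nrn1+/- cells, neither by 1.5-fold. Rbl1, the third pocket protein gene, had 24.7 FPKM in Nrn1-/- cells and 26.6 FPKM in Nrn1+/- cells.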
